A study of Drosophila melanogaster with 14 samples.

Results

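GAGA factor (GAF) binding was set against itself between wing imaginal discs and embryos of Drosophila melanogaster, with every peak of both deposited GAF lists as a member. The wing disc list held 6328 peaks and the embryo list 6470, which makes 12798 of the 29537 peaks in the 5 lists of the series. Wing imaginal discs, the larval tissue that gives rise to the adult wing, were dissected from wandering larvae of the 3rd instar, and 2 GAF libraries and 2 libraries of input chromatin stand behind them in the labels. The embryo samples were whole embryos collected 8 to 16 hours after egg laying, with 3 GAF libraries and 1 input library. All flies were of the Iso1 strain, unmodified as far as the labels say, and the same antibody, against the GAF protein Trl, was named for both tissues. A whole embryo holds many tissues and a wing disc mostly epithelium, so a site bound in a small share of the cells and a site bound weakly in all of them cannot be told apart.

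GAF is the product of the gene Trithorax-like (Trl). It is a zinc finger protein that binds GA-rich DNA, recruits nucleosome remodelling complexes and keeps regulatory DNA accessible. It is known from promoters with paused RNA polymerase, including those of heat shock genes, and from the response elements through which Polycomb and Trithorax proteins maintain the states of developmental genes. Yorkie (Yki), the growth-promoting coactivator that the Hippo pathway restrains, and trimethylated lysine 4 of histone H3 (H3K4me3), a mark of active promoters, were mapped in the same series and serve here as readouts that the GAF lists did not use. In the labels, 1 library stands behind Yki in wing discs, 3 behind Yki in embryos and 2 behind H3K4me3 in embryos.

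There was 1 peak list per tissue, so no replicate values exist and no difference between tissues was tested. The ranges in brackets are 95% intervals. They follow the Wilson method for a share, that of Newcombe for a difference between shares and order statistics for a median. For a difference between medians, the distances of both medians to their interval limits were combined as the root of the sum of squares. All of them cover counting error in these lists alone, since peaks are not replicates. Depth is unknown, and whether both tissues were called alike was not given in the sources used here. In both GAF lists the narrowest peak was 200 bp wide and the smallest gap between neighbouring peaks was 51 bp, and the same held for the other 3 lists. Peaks are given by position on the dm3 build, and gene annotation of that build was not used here.

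Wide and high-scored GAF peaks mostly had a partner in the other tissue, and narrow or low-scored ones mostly did not. Of the wing disc peaks, 3868 overlapped an embryo peak by at least 1 bp (61.1%, 59.9 to 62.3), and 2460 did not. Of the embryo peaks, 3833 overlapped a wing disc peak (59.2%, 58.0 to 60.4), and 2637 did not. Peaks with a partner are called shared, the others wing-disc-only and embryo-only. A wide peak meets a rule of 1 bp more readily by its length, and the part of this in the order by width was not tested. Both tissue-only classes were similarly narrow, with a median width of 394 bp (quartiles 278 and 587) in wing discs and 387 bp (282 and 573) in embryos. Shared peaks were wider, with a median of 999 bp (514 and 1694) in wing discs and 849 bp (491 and 1527) in embryos. Shared peaks made up 4.96 Mb of the 6.14 Mb covered in wing discs, and 4.86 Mb of the 6.16 Mb covered in embryos.

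The authors' score, which of the 2 GAF lists that of wing discs alone carries and which is used as a rank within that list, ordered the wing disc peaks by how often they recurred in embryos. In the lowest decile by score, 29.7% (26.3 to 33.4) were shared. The share stayed at 30.2% and 31.9% in the second and the third decile, reached 48.0% in the fifth and 78.3% in the seventh, and was 100% (633 of 633, lower bound 99.4) in the highest. The 847 wing disc peaks with the highest scores all had an embryo partner, and 2 of the first 1000 lacked one. Shared peaks had a median score of 100.6 (quartiles 27.7 and 269), against 15.8 (10.97 and 26.9) for wing-disc-only peaks. Their median percentiles in the list were 68.6 and 28.1.

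Width gave a similar order in both lists. In the narrowest decile, 30.5% (27.03 to 34.2) of wing disc peaks and 27.8% (24.5 to 31.4) of embryo peaks were shared. In the widest decile the shares were 99.1% (97.9 to 99.6) in wing discs and 96.8% (95.1 to 97.9) in embryos. Score was also read within 4 classes of width of equal size. Among wing disc peaks 635 to 1246 bp wide, 89.9% of the upper 50% by score were shared, against 52.1% of the lower 50%, a difference of 37.8 points (33.6 to 41.8). Among those of up to 356 bp the difference was 10.2 points (5.6 to 14.8).

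**Figure D1:**
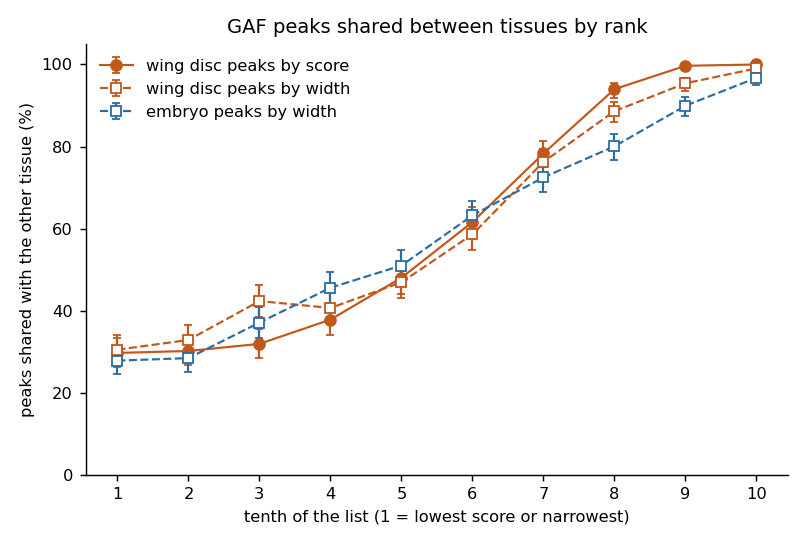
Share of GAF peaks with a peak in the other tissue, in percent, for each decile of the list ordered by score or width (bars, Wilson 95% intervals). Filled orange circles are wing disc peaks by score, open orange squares wing disc peaks by width and open blue squares embryo peaks by width. The 3 curves start between 27.8 and 30.5% and end between 96.8 and 100%.

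The strongest peaks of each class show this contrast by position. The highest-scored shared peak was at X 8314041 to 8316644 (2604 bp, score 931, rank 1). It was followed by one at 3L 16044837 to 16047436 (score 868), one at 2R 15993308 to 15995446 (score 849), one at Uextra 438817 to 439844 on an unplaced scaffold (score 812) and one at 3R 27537146 to 27541765 (score 778). All 5 also overlapped Yki peaks of both tissues, and those on 3L and 3R overlapped H3K4me3. Of all shared wing disc peaks, 56.2% overlapped Yki of wing discs, 51.6% Yki of embryos and 36.6% H3K4me3. The highest-scored wing-disc-only peak, at 3R 14272774 to 14275111 (2338 bp, score 298), ranked 848 of 6328, and the nearest embryo peak lay 894 bp away. The next were at 2L 19581773 to 19582813 (score 290, rank 877), Uextra 7039352 to 7039785 (score 206), 2R 8299541 to 8300653 (score 196) and 2L 17388977 to 17389635 (score 181). The 2R peak lay 24386 bp from the nearest embryo peak. The wing-disc-only peaks on 3R and 2R overlapped Yki of wing discs, and that at 2L 19581773 overlapped Yki of embryos and H3K4me3. Those at Uextra and 2L 17388977 overlapped none of these lists. Of all wing-disc-only peaks, 45.0% overlapped Yki of wing discs, 11.02% Yki of embryos and 38.1% H3K4me3.

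The embryo list has no score, and its widest tissue-only peak ranked 144 of 6470 by width. It lay at 2R 6117711 to 6121923 (4213 bp), 1158 bp from the nearest wing disc peak and 121 bp from the next embryo peak. The next widest began at 3R 19050864 (3906 bp wide), 2L 7243379 (3397 bp wide), 3L 5656842 (3369 bp wide) and 2R 9076457 (3154 bp wide). None of the 5 overlapped a Yki wing disc peak, which 1.44% of all embryo-only peaks did. All but the first overlapped a Yki embryo peak, beside 7.02% of all embryo-only peaks and 40.3% of those over 800 bp. Among the 2000 widest peaks of each list, 122 in wing discs and 228 in embryos were tissue-only.

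Peaks were shared somewhat more often on the X chromosome than on the 4 large autosome arms. On X, 800 of 1248 wing disc peaks (64.1%, 61.4 to 66.7) and 804 of 1259 embryo peaks (63.9%, 61.2 to 66.5) were shared. On the autosome arms the shares were 60.4% (59.04 to 61.8) of 4978 wing disc peaks and 58.2% (56.9 to 59.6) of 5099 embryo peaks. X exceeded the autosomes by 3.70 points (0.677 to 6.65) in wing discs and 5.63 points (2.62 to 8.57) in embryos. With the lists limited to the 50% of wing disc peaks with the highest scores and the widest 50% of embryo peaks, the X difference was -2.68 points (-6.77 to 1.24) in wing discs and 4.10 points (0.0246 to 7.95) in embryos. Between arms, the shares ran from 58.9% on 3L to 62.1% on 2R in wing discs and from 56.8% on 3R to 59.8% on 2L in embryos, with intervals that overlap.

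The X difference exceeded counting error in peaks of middle width. Within classes of width of equal size, in the second and the third of 4 it was 7.28 points (1.14 to 13.4) and 7.04 points (1.58 to 12.03) in wing discs, and 10.4 points (4.34 to 16.3) and 9.77 points (4.36 to 14.7) in embryos. In the narrowest class it was 2.86 and 3.22 points in wing discs and embryos, and in the widest 0.0560 and 3.32 points, and these 4 intervals include 0. X peaks were not the wider ones, with medians of 641.5 bp in wing discs and 568 bp in embryos, against 644.5 bp and 591 bp on the autosome arms.

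Chromosome 4, the small and largely heterochromatic one, went the other way in embryos. Of its 41 wing disc peaks 29 were shared (70.7%, 55.5 to 82.4), and of its 65 embryo peaks 28 (43.1%, 31.8 to 55.2). The difference from the autosome arms was 10.3 points in wing discs (-4.95 to 22.1), an interval that includes 0, and -15.2 points in embryos (-26.5 to -2.98). A stretch of chromosome 4 from 159549 to 390875 held 12 embryo-only sites in a row with no wing disc peak between them. Heterochromatin and unplaced scaffolds held 61 wing disc peaks, 52.5% shared (40.2 to 64.5), and 47 embryo peaks, 68.1% shared (53.8 to 79.6).

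At shared sites GAF peaks were of nearly the same width in both tissues, slightly wider in wing discs. Merging overlapping peaks of both lists gave 8641 sites, of which 3544 were shared. In 3070 of these 1 wing disc peak met 1 embryo peak. In 226 a single wing disc peak overlapped 2 or more embryo peaks, and in 219 a single embryo peak overlapped 2 or more wing disc peaks. In 29 both were multiple. At the 3070 one-to-one sites the median width was 957.5 bp in wing discs and 826.5 bp in embryos. The median log2 ratio of widths, wing disc over embryo, was 0.11 (0.08 to 0.14), a 1.08-fold difference, with quartiles of -0.30 and 0.55. The medians of the whole lists, 634.5 bp and 583 bp, stand in a log2 ratio of 0.12. That is a ratio of medians and not a median of ratios per site, so it is not directly comparable with the 0.11 above.

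Individual sites spread far around that median. Wing disc peaks were wider at 1812 sites, or 59.0% of them (57.3 to 60.8), embryo peaks at 1254, and 4 were equal. The wing disc peak was at least 1.5-fold wider at 722 sites (23.5%) and at least 1.5-fold narrower at 520 (16.9%). Despite this the peaks were centred alike: midpoints lay a median of 77.5 bp apart (quartiles 30.5 and 168.5), within 100 bp at 57.8% of sites, and within 413 bp at 95% of them. Overlap, by which the sites were chosen, itself limits this offset. The wing disc peak enclosed the embryo peak at 42.4% of sites and the embryo peak enclosed the wing disc peak at 27.9%. Over the 3070 sites, as a description across sites of the same 2 lists, Spearman's rho between the widths was 0.68, and between the wing disc score and the embryo width 0.62.

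The ratio moved with the wing disc score. In the lowest of 5 classes of one-to-one sites by score it was -0.54 (-0.65 to -0.46), with median widths of 334 bp in wing discs and 515.5 bp in embryos. It was 0.08 (0.03 to 0.15) in the second, 0.39 (0.31 to 0.48) in the third, 0.30 (0.24 to 0.33) in the fourth and 0.11 (0.08 to 0.14) in the highest. Spearman's rho between score and wing disc width over these sites was 0.85, so the classes were ranked by a measure tied to one side of the ratio. Among the 5 large arms the median ran from 0.08 on 2L to 0.14 on 2R, with 0.10 (0.06 to 0.16) on X, 0.11 (0.09 to 0.14) on the autosome arms and 0.00 (-0.32 to 0.39) at the 24 sites on chromosome 4.

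The GAF peak at a shared site was the wider one, in most cases, in the tissue where Yki also had a peak. A Yki wing disc peak without a Yki embryo peak lay on the stretch covered by both GAF peaks at 506 one-to-one sites. There the GAF peak was wider in wing discs at 441 (87.2%, against 59.0% of all one-to-one sites), with a median log2 ratio of 0.69 (0.59 to 0.74) and median widths of 988 bp in wing discs and 557 bp in embryos. A Yki embryo peak without a Yki wing disc peak lay at 352 sites. There the GAF peak was wider in wing discs at 56 (15.9%), with a median log2 ratio of -0.81 (-0.91 to -0.67) and widths of 654 bp in wing discs and 1127 bp in embryos. The 2 medians differ by 1.504 (1.33 to 1.61) on the log2 scale.

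Sites with Yki in both tissues, 1184 in number, had a median log2 ratio of 0.15 (0.12 to 0.19), and the 1028 with Yki in neither had -0.01 (-0.05 to 0.03). Median widths were 1647.5 bp in wing discs and 1404 bp in embryos with Yki in both, and 476 and 503.5 bp with Yki in neither. The contrast was present in each of 4 classes of equal size by the geometric mean of both widths. In the narrowest, up to 525 bp, the median log2 ratio was 0.50 (0.28 to 0.73) at the 113 where Yki was in wing discs alone and -1.28 (-1.36 to -0.87) at 51 sites with Yki in embryos alone. In the widest, from 1405 bp, it was 0.48 (0.27 to 0.65) at 35 sites and -0.52 (-0.80 to -0.21) at 54 sites. Sites with H3K4me3 on the common stretch had a ratio of 0.22 (0.19 to 0.25), and those without 0.03 (0.00 to 0.06).

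**Figure D2:**
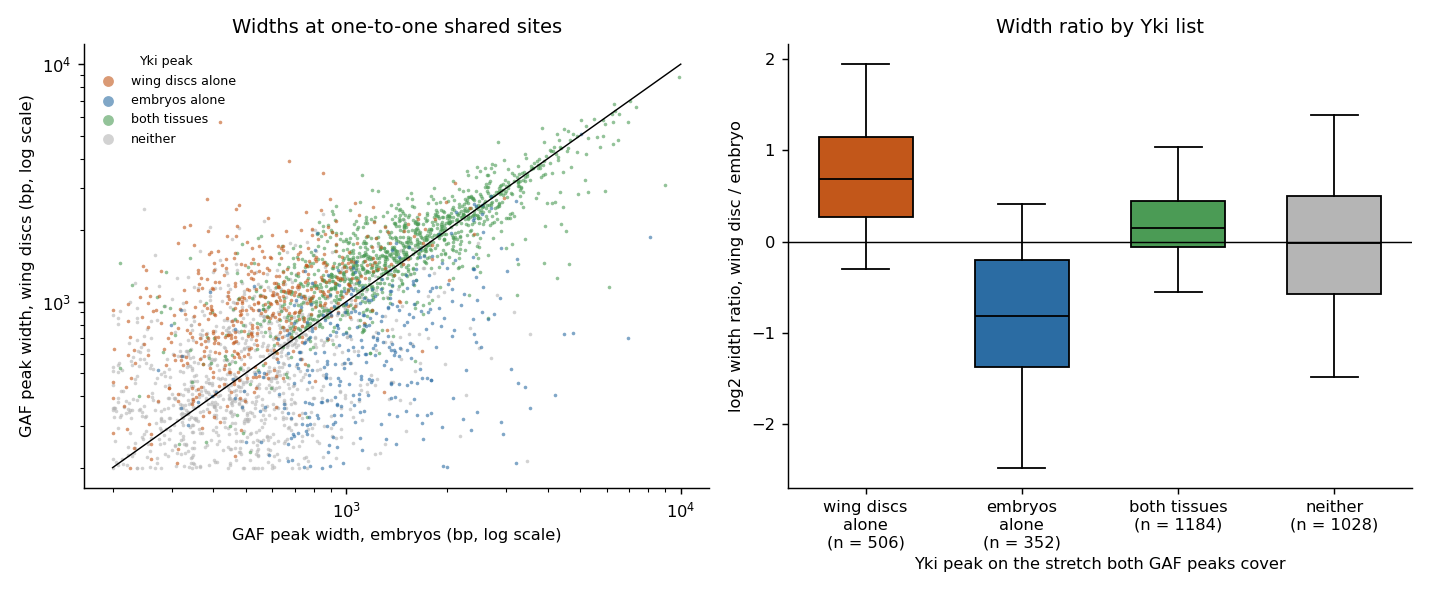
Left, GAF peak width in wing discs against that in embryos at the 3070 one-to-one shared sites, in bp on log scales, coloured by where Yki had a peak on the stretch covered by both GAF peaks; the line marks equal widths. Right, log2 width ratio, wing disc over embryo, for the same 4 classes (line, median; box, quartiles; whiskers, central 90%). The box for Yki peaks in wing discs alone lies above 0 and that for embryos alone below it.

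At the sites of most unequal width Yki was read on the stretch covered by both GAF peaks, where 1690 of the 3070 one-to-one sites (55.0%) had Yki in wing discs and 1536 (50%) had Yki in embryos. The largest ratio was at 3R, where a wing disc peak from 27522799 to 27528494 (5696 bp) lay over an embryo peak from 27524138 to 27524557 (420 bp), a 13.6-fold difference. It was followed by a wing disc peak at 3R 21012885 to 21015329 (9.82-fold), one at 3L 619667 to 622362 (7.02-fold), one at 3R 25574449 to 25575899 (6.88-fold) and one at 2R 18065734 to 18067797 (6.31-fold). All but that at 3R 21012885 had Yki in wing discs there, and that at 3R 25574449 had Yki in embryos too. In the other direction the embryo peak at 3L 18013885 to 18017354 (3470 bp) lay over a wing disc peak of 213 bp with a score of 9.65, a log2 ratio of -4.03. The next were the embryo peaks at 2R 15297330 to 15300556 (-3.94), 3L 11038026 to 11040975 (-3.42), 2L 18843512 to 18847706 (-3.37) and 3R 15555494 to 15557492 (-3.31). Of these 5, 4 had Yki in embryos there and that at 3L 18013885 had none, and none had Yki in wing discs.

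Most tissue-only peaks lay kilobases away from any GAF peak of the other tissue. The median gap to the nearest peak of the other list was 5232.5 bp (4785 to 5713) for wing-disc-only peaks and 3672 bp (3296 to 3989) for embryo-only peaks. A gap of up to 500 bp was found for 280 wing-disc-only peaks (11.4%, 10.2 to 12.7) and 330 embryo-only peaks (12.5%, 11.3 to 13.8). Within 5 kb the shares were 48.9% (46.9 to 50.9) and 56.3% (54.4 to 58.2), and within 50 kb 97.6% and 94.9%. The upper quartile of the gap was 12882.5 bp for wing-disc-only peaks and 12564 bp for embryo-only peaks. The medians depend on the definition: they were 1636 and 1271 bp where sharing needed a reciprocal overlap of 50%, and 11732 and 8170 bp among the 50% of peaks strongest by score (wing discs) or width (embryos).

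Tissue-only peaks lay closer to peaks of their own list. The 2 gaps are not alike in kind, because these peaks were chosen for lacking an overlap with the other list. How far that choice sets the order was not tested. Wing-disc-only peaks were a median of 2991.5 bp (2658 to 3249) from the next wing disc peak, and 72.6% (70.8 to 74.3) of them had a wing disc peak nearer than any embryo peak. Embryo-only peaks were 1530 bp (1326 to 1744) from the next embryo peak, and for 69.7% (67.9 to 71.4) that was nearer than any wing disc peak. Shared peaks lay 1825.5 bp (1703 to 2021) from the next peak of the wing disc list and 1849 bp (1634 to 2107) from that of the embryo list. Wing-disc-only peaks thus stood farther from their own list than shared ones did, whereas in embryos the intervals of the classes overlap. The farthest tissue-only peaks were on unplaced or heterochromatic scaffolds, a wing-disc-only peak at Uextra 12867250 to 12867449, which was 2067935 bp from the nearest embryo peak, and an embryo-only peak at 2RHet 3170596 to 3170959, which was 2799962 bp from the nearest wing disc peak.

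**Figure D3:**
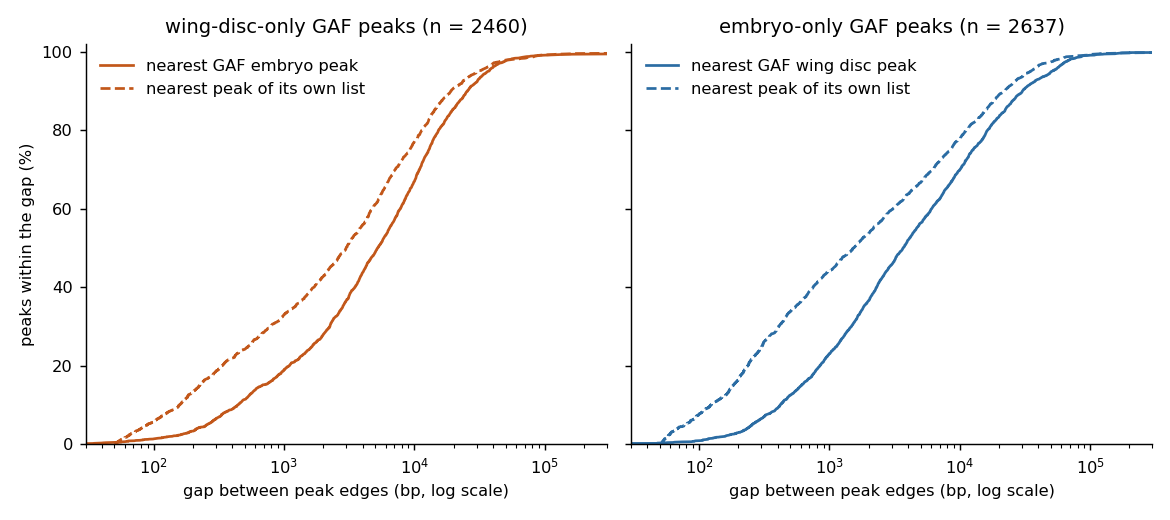
Cumulative share of tissue-only GAF peaks, in percent, by the gap between peak edges in bp on a log scale, for wing-disc-only peaks on the left and embryo-only peaks on the right. Solid lines give the gap to the nearest peak of the other tissue, with medians of 5232.5 bp and 3672 bp, and broken lines the gap to the next peak of the same list, which is shorter in both panels.

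Sites of a kind also followed one another along the chromosomes. On the 6 main arms (2L, 2R, 3L, 3R, X and 4) there were 3512 shared, 2431 wing-disc-only and 2622 embryo-only sites, or 41.0%, 28.4% and 30.6% of 8565. A wing-disc-only site was followed by another wing-disc-only site in 39.3% of cases (37.4 to 41.3) and by an embryo-only site in 18.4% (16.9 to 20.0). An embryo-only site was followed by another embryo-only site in 44.1% (42.2 to 46.0) and by a wing-disc-only site in 16.3% (14.9 to 17.8). After a shared site the classes stood close to their shares of all sites, with 41.1% shared, 29.9% wing-disc-only and 29.0% embryo-only. The median gap was 5114 bp between 2 wing-disc-only neighbours, 2116 bp between 2 embryo-only neighbours and 10252 bp from an embryo-only site to a wing-disc-only one after it.

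The longest uninterrupted runs were embryo-only. Runs of 5 or more sites numbered 39 among 2431 wing-disc-only sites, 67 among 2622 embryo-only sites and 65 among 3512 shared sites. They held 217, 416 and 362 sites in that order. Embryo-only and shared runs of that length were thus about equal in number, though there were more shared sites. Runs of 8 or more sites numbered 2 among wing-disc-only sites, 13 among embryo-only sites and 4 among shared sites. The longest wing-disc-only runs had 10 sites at 3L 10676204 to 10709545 over 33.3 kb and 9 sites at 2R 4951138 to 5079756. The longest embryo-only runs had 12 sites, 1 at 3L 13512007 to 13897144 over 385 kb and the stretch of chromosome 4 named above, and a run of 11 lay at 2R 20575266 to 20629529.

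Over bins of 100 kb, to which peaks were assigned by midpoint, the tissues had similar landscapes, with a small number of bins in which 1 list was far denser. The 1205 bins of the 6 arms held a median of 4 peaks in each list and up to 29 in wing discs and 37 in embryos. Counts differed by at most 2 in 70.3% of bins, and 50 bins were empty in both. Spearman's rho between the lists over bins was 0.79 and Pearson's r 0.77. Both are given as a description, since shared sites count in both lists and bins share genome composition and neighbours. Tissue-only counts were only weakly related to each other, with a rho of 0.16 between wing-disc-only and embryo-only peaks. With the counts of shared peaks, rho was 0.44 for wing-disc-only and 0.39 for embryo-only peaks.

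Embryo peaks were the more clustered ones. The variance of counts per bin was 3.15 times the mean in wing discs and 3.76 times in embryos. For tissue-only peaks these ratios were 1.93 in wing discs and 2.91 in embryos, while for shared peaks they were 2.57 and 2.49. The 120 bins densest in embryos held 21.7% (20.7 to 22.7) of the wing disc peaks, and the 120 densest in wing discs held 23.0% (22.0 to 24.04) of the embryo peaks, with 60 bins in both sets.

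A bin was counted as tilted when 1 tissue had at least 2-fold and at least 5 more peaks. By this rule 30 bins (2.49%) were tilted to wing discs and 49 (4.07%) to embryos. The bins tilted to wing discs held 203 of the 2431 wing-disc-only peaks on the arms. Those tilted to embryos held 411 of the 2622 embryo-only peaks. As the rule picks bins by an excess of 1 list, many tissue-only peaks of that list in them largely follow from the rule. The largest tilt was on 3R from 12700001 to 12800000, with 5 wing disc and 24 embryo peaks. All 5 wing disc peaks there were shared, 19 of the embryo peaks were embryo-only, and 2 Yki wing disc, 5 Yki embryo and 0 H3K4me3 peaks had their midpoint in the bin. To its left, the bins from 12500001 and 12600001 held 6 and 6 wing disc against 12 and 8 embryo peaks, and the bin to its right 12 wing disc and 15 embryo peaks.

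The bin with most embryo peaks, on 3L from 18000001 to 18100000, held 19 wing disc and 37 embryo peaks, 5 of them wing-disc-only and 22 embryo-only. Its excess of embryo peaks was the second largest, but at under 2-fold it was not among the tilted bins. The excess turned over at its right edge: the bin from 18100001 to 18200000 held 17 wing disc and 7 embryo peaks, with 9 wing-disc-only peaks and 0 embryo-only ones. On its left, the bin from 17900001 held 16 wing disc and 24 embryo peaks. The other 3 bins with the largest excess in embryos were 2R 5800001 to 5900000 (10 in wing discs, 24 in embryos), 3L 18700001 to 18800000 (9 and 23) and 3R 19000001 to 19100000 (11 and 23).

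The bin tilted most to wing discs was on 2R from 14100001 to 14200000, with 18 wing disc and 5 embryo peaks. All 5 embryo peaks were shared, 13 wing disc peaks were wing-disc-only, and the bin held 24 Yki wing disc and 8 Yki embryo peaks. It was followed by 2R 20800001 to 20900000 (15 in wing discs, 5 in embryos), 3L 18100001 to 18200000, 2L 12000001 to 12100000 (16 and 7) and 3L 3300001 to 3400000 (15 and 7). The 5 bins held more Yki peaks of wing discs than of embryos, as the whole lists do (6491 and 3749), with 24, 16, 8, 17 and 16 in wing discs against 8, 7, 4, 5 and 2 in embryos. Beside that on 3L from 18000001, the bins with most peaks over both lists differed by at most 6 peaks. 3R 17400001 to 17500000 held 29 in wing discs and 32 in embryos, 3R 9800001 to 9900000 held 21 and 26, 2R 9800001 to 9900000 held 21 and 25, and 3R 12000001 to 12100000 held 25 and 19.

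**Figure D4:**
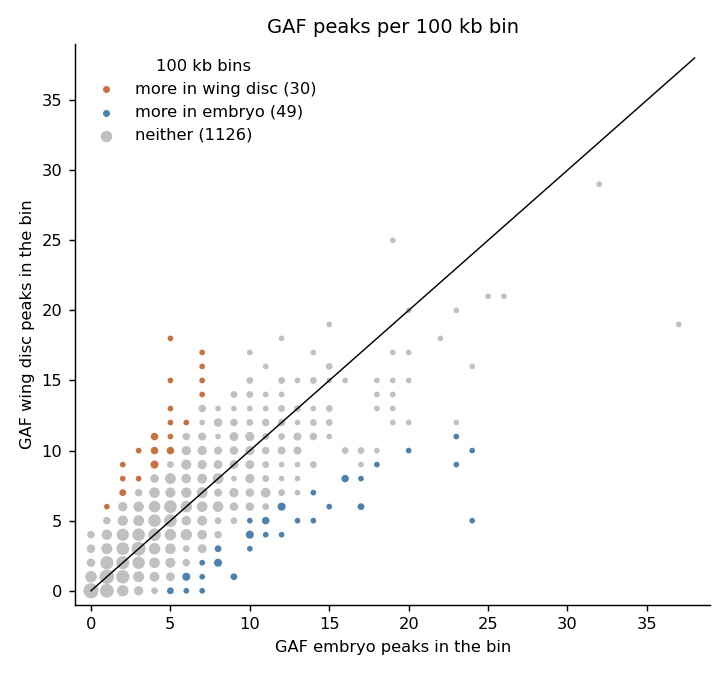
GAF wing disc peaks against GAF embryo peaks per 100 kb bin, with point area growing with the number of bins at that pair of counts and a line at equal counts. Orange marks the 30 bins with at least 2-fold and 5 more peaks in wing discs, blue the 49 with as many more in embryos, and grey the rest. The blue point at 5 wing disc and 24 embryo peaks is the bin on 3R with the largest tilt.

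Wing-disc-only and embryo-only peaks, alike in width, differed in how often they met the promoter mark and Yki. H3K4me3 peaks of embryos overlapped 937 of 2460 wing-disc-only peaks (38.1%, 36.2 to 40.0) but 182 of 2637 embryo-only peaks (6.90%, 5.996 to 7.93), a difference of 31.2 points (29.03 to 33.3). Over all peaks the shares were 37.2% of the wing disc list and 24.6% of the embryo list. The mark was mapped in embryos alone, the tissue in which the wing-disc-only sites had no GAF peak. Shared peaks overlapped H3K4me3 in 36.6% of wing disc peaks and 36.7% of embryo peaks, so that wing-disc-only peaks differed from shared ones by less than counting error (-1.48 points shared minus wing-disc-only, -3.93 to 0.958). With a reciprocal overlap of 50% as the rule for sharing, that difference was 6.80 points (4.37 to 9.22), and the contrast between the tissue-only classes was 20.4 points. Wing-disc-only peaks lay a median of 1937 bp (1419 to 2547) from the nearest H3K4me3 peak, against 7569 bp (7030 to 8221) for embryo-only peaks.

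The difference was present in each of 4 classes of width. Among tissue-only peaks of up to 300 bp H3K4me3 overlapped 32.4% in wing discs and 5.00% in embryos, among those above that and up to 500 bp 37.8% and 5.18%, among those above that and up to 800 bp 42.6% and 7.86%, and among wider ones 45.0% and 15.1%. With H3K4me3 counted where it covered the peak's midpoint, the shares were 25.9% in wing discs and 3.87% in embryos, a difference of 22.1 points (20.2 to 24.0). Among wing-disc-only peaks the share differed little with score, at 40.5% at or above and 37.6% below the list's median score (2.88 points, -2.18 to 8.07). Among shared wing disc peaks it was 44.6% and 17.0% in the same order.

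Yki peaks of wing discs were common at wing-disc-only GAF peaks, and Yki peaks of embryos were rare at embryo-only ones. Yki wing disc peaks overlapped 45.0% (43.1 to 47.0) of wing-disc-only and 1.44% (1.05 to 1.97) of embryo-only GAF peaks, beside 51.8% of all wing disc and 34.7% of all embryo GAF peaks. Yki embryo peaks overlapped 11.02% (9.84 to 12.3) of wing-disc-only and 7.02% (6.10 to 8.05) of embryo-only GAF peaks, beside 35.8% and 32.7% of all. Thus 38 of 2637 embryo-only peaks carried Yki in wing discs, and 185 carried Yki in embryos. Shared peaks overlapped Yki wing disc peaks in 56.2% of wing disc peaks and Yki embryo peaks in 50.4% of embryo peaks. Against the tissue-only peaks of the same list that is 11.1 points more in wing discs (8.62 to 13.6) and 43.4 points more in embryos (41.5 to 45.2). With a reciprocal overlap of 50% the wing disc value was 18.1 points. The wing-disc-only minus embryo-only difference in Yki of wing discs was then 28.6 points, against 43.6 (41.6 to 45.6) with 1 bp. Shared peaks were wider than tissue-only ones (medians 999 against 394 bp in wing discs, 849 against 387 bp in embryos). A wide peak meets a 1 bp rule more readily. Shared and tissue-only peaks were not compared at equal width for Yki or H3K4me3, so the part of width was not tested.

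For Yki in embryos the order of the tissue-only classes turned with width. Among peaks over 800 bp, Yki embryo peaks overlapped 19.4% of 278 wing-disc-only and 40.3% of 325 embryo-only peaks, a difference of -20.9 points (-27.7 to -13.6). Among peaks of up to 300 bp the shares were 8.88% and 0.513%, a difference of 8.37 points (6.35 to 10.7). For Yki in wing discs the same classes gave 80.2% and 0.923% among peaks over 800 bp, and 30.5% and 1.54% among peaks of up to 300 bp. The Yki list of wing discs, with 1 library behind it, held 6491 peaks, and that of embryos, with 3 libraries, held 3749. The part of list length or number of libraries in these overlaps was not tested.

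**Figure D5:**
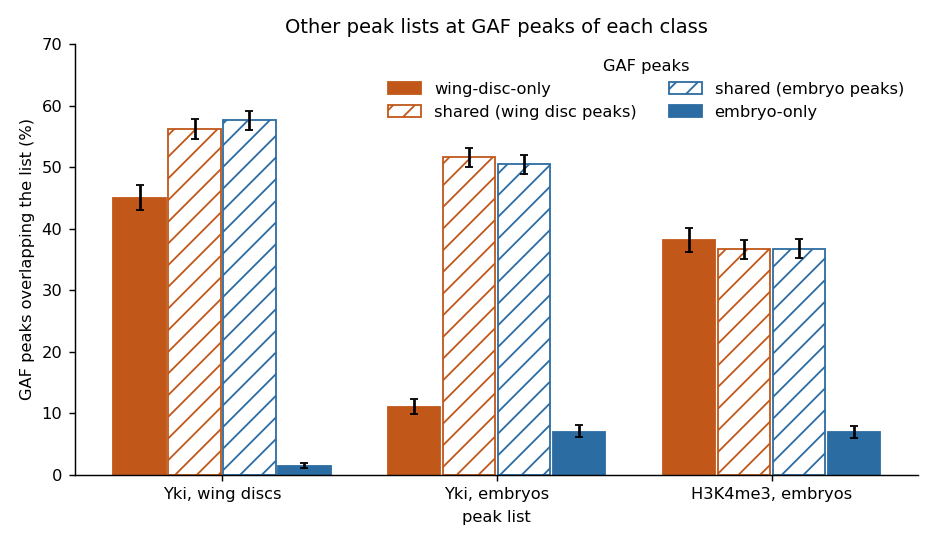
Share of GAF peaks, in percent, that overlapped by at least 1 bp a Yki wing disc, Yki embryo or H3K4me3 embryo peak (bars, Wilson 95% intervals). Filled orange is wing-disc-only, hatched orange shared (wing disc peaks), hatched blue shared (embryo peaks) and filled blue embryo-only. Embryo-only peaks have the lowest bar for each list, between 1.44 and 7.02%.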

How the data were processed

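The data were 5 deposited peak lists on dm3, 1 per antibody and tissue, and the 2 GAF lists were compared. Per the submitters' processing notes, CASAVA 1.7.0, BWA and Bowtie were used. Wing disc peaks carry MACS names in the deposited lists. For the embryo lists the caller, and for every list the thresholds, use of input and pooling, were not given in the sources used here. The deposited lists hold starts and ends, and those of wing discs also the authors' score, of unstated scale, used for ranks. Per the labels' protocols, libraries were tagmented and amplified by 12 PCR cycles.

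Chromosome names were made uniform, and overlaps, gaps, widths and 100 kb bins were computed with scipy 1.17.1, pandas 2.3.3 and numpy 2.4.6 under Python 3.11.15, and plotted in matplotlib 3.10.9. Simulated lists with 0, 25, 50 and 75% planted overlap, spaced so that only planted peaks could meet, returned those shares. This checks the interval arithmetic alone. Named regions are the 5 strongest or widest peaks per class, the 5 most changed widths per direction, the 3 farthest tissue-only peaks per list, of which the first is printed, and the 5 bins with most peaks and the 5 with the largest difference in count in each direction. Members, lists and comparisons were chosen with earlier results of these data known. Comparing GA-rich motifs needed a dm3 genome, not used here.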

Additional observations from a re-analysis of the deposited data

How the results depend on the processing

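No paired analysis was possible because the lists hold no value per replicate, and no library could be left out for the same reason. Of 84 values under other settings, 42 stayed within the interval of the reported value or within 1.5 times the count, 41 moved further, and 1 reversed. Among the 41, the H3K4me3 difference between shared and wing-disc-only peaks, whose interval included 0, also changed sign. The motif comparison was not run. Settings for the tissue-only contrasts, the order of sites, tilted bins and the width ratio by Yki were chosen after the data were seen, as was the midpoint rule for H3K4me3. The cause of each shift was not tested where the setting does not itself state it.

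With a reciprocal overlap of 50%, with midpoints within 500 bp, with gaps of up to 500 bp counted as shared and in the strongest 50% of each list (by score in wing discs, by width in embryos), the shared share was 41.5, 53.1, 65.5 and 70.7% in wing discs and 40.6, 52.2, 64.3 and 68.6% in embryos. The X difference in wing discs reversed to -2.68 points in the strongest 50%, while that in embryos was 4.10 points. The median gap was 5996 bp between midpoints, 1636 bp with reciprocal overlap, 3455 bp with midpoints within 500 bp and 11732 bp in the strongest 50% for wing-disc-only peaks, and 4518.5, 1271, 2417 and 8170 bp for embryo-only peaks. The share in the other tissue's densest bins was 25.2% in wing discs and 27.2% in embryos with 50 kb bins, 20.2 and 21.1% with 200 kb bins, 24.7 and 25.5% in the strongest 50%, and 24.8% in embryos with bins shifted by 50 kb. The score percentile difference was 36.7 with midpoints within 500 bp.

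Shared minus wing-disc-only, Yki in wing discs differed by 18.1 points with reciprocal overlap, and shared minus embryo-only, Yki in embryos by 40.8 and 36.1 points with reciprocal overlap and midpoints. For H3K4me3 the shared minus tissue-only difference was 6.80 points in wing discs and 26.0 in embryos with reciprocal overlap, 24.4 in embryos with midpoints within 500 bp, and -4.32 and 16.5 with the peak midpoint inside H3K4me3. Whether wing-disc-only peaks carried more or less H3K4me3 than shared ones thus depends on the setting. Wing-disc-only minus embryo-only, Yki in wing discs differed by 28.6 points with reciprocal overlap, 35.4 with midpoints and 47.7 on the 4 autosome arms, and H3K4me3 by 20.4, 25.5 and, with the midpoint inside, 22.1. Among the strongest 50%, 27.4% of wing-disc-only and 32.4% of embryo-only sites were followed by their own kind. The shares of these classes among all sites of that subset were not computed, so a change in clustering cannot be read from these values. The Yki contrast in width ratio was 1.05 in the strongest 50%.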

Other observations

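Some values belong to no comparison above. The 3 widest GAF embryo peaks all lay on X. The first, at 3565882 to 3593771 (27890 bp), overlapped 8 wing disc peaks of 233 to 7186 bp and scores of 9.65 to 463, 22599 bp in sum. The second, at 2185825 to 2202764 (16940 bp), overlapped 3 wing disc peaks, and the third, at 1834399 to 1846949 (12551 bp), overlapped 4. The 3 widest wing disc peaks were narrower: 8842 bp at 3R 5907231 to 5916072, 8580 bp at X 7584586 to 7593165 and 8439 bp at 2R 14685964 to 14694402. The first of these lay on 1 embryo peak of 9913 bp and the second on 1 of 11564 bp. The widest embryo peak and its 8 wing disc peaks also make their X bin, with 8 wing disc and 2 embryo peaks, count as tilted to wing discs although 0 of those 8 were wing-disc-only.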
